A study of Rattus norvegicus with 2 samples.

Results

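Of 10 rat genes studied here, 7 annexins (Anxa1 to Anxa7) and 3 S100 genes known as their binding partners (S100a6, S100a10 and S100a11), 9 had probes that could be named, out of 13667 named genes on the array. Members were the non-control probes whose RefSeq transcript accession belongs to 1 of the listed genes, which gave 16 probes. S100a11 had no probe that could be named and was not analysed here. All 16 probes had signals that the scanner software called well above background on both arrays (detected, in what follows), so no member was lost to the filter on dim signals. Liver RNA came from Sprague Dawley rats that received either sodium chloride (control) or 35 mg/kg of senecionine, a pyrrolizidine alkaloid that liver enzymes turn into reactive pyrroles, by the intragastric route, and livers were taken at 36 h. Age and sex are not given in the sources used here. Each group was a pool of 3 tissue samples hybridised to 1 one-colour Agilent array, so, as the labels were read here, the arrays have no replicates, the spread between animals is unknown and no test was made. The design text also speaks of 2 independent experiments, which were taken to be the control and the senecionine array. The question the pair of arrays addresses is which liver transcripts differ after the alkaloid.

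Annexins are cytosolic proteins that attach to acidic membrane lipids when calcium rises, through a repeated core domain, and differ mainly in the tail in front of that core. S100 proteins are small calcium-binding proteins that work as dimers. The S100a10 dimer holds a pair of Anxa2 molecules together at the membrane, S100a11 is the corresponding partner of Anxa1, and S100a6 binds several annexins. These complexes are known for membrane repair, vesicle transport and, on the cell surface, for the assembly of plasminogen with its activator. In resting liver Anxa6 is known as a hepatocyte annexin, whereas Anxa1 and Anxa2 are known mainly from bile duct, stromal and immune cells.

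After senecionine, 7 of the 9 measured members stood 2-fold or more above the control pool, and no member stood as far below it. Anxa2 and S100a10, which form a complex, had the largest ratios, at 17.8-fold and 8.74-fold higher. Anxa1 was 7.38-fold and S100a6 6.78-fold higher, followed by Anxa4, Anxa5 and Anxa7. Anxa3 and Anxa6 stayed within 2-fold. Of all 7803 genes detected on both arrays, 11.2% stood 2-fold or more above the control and 17.7% as far below it. At 4-fold, 5 members were higher and none lower, beside 2.73% and 4.63% of all genes. The median log2 ratio, senecionine minus control, was 2.05 over the 9 members and -0.14 over all measured genes. This describes 1 pool against 1 pool, and the members share both arrays. The members were chosen with earlier results of these data known, so the shares of all genes beside them are a description and no test.

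**Figure D1:**
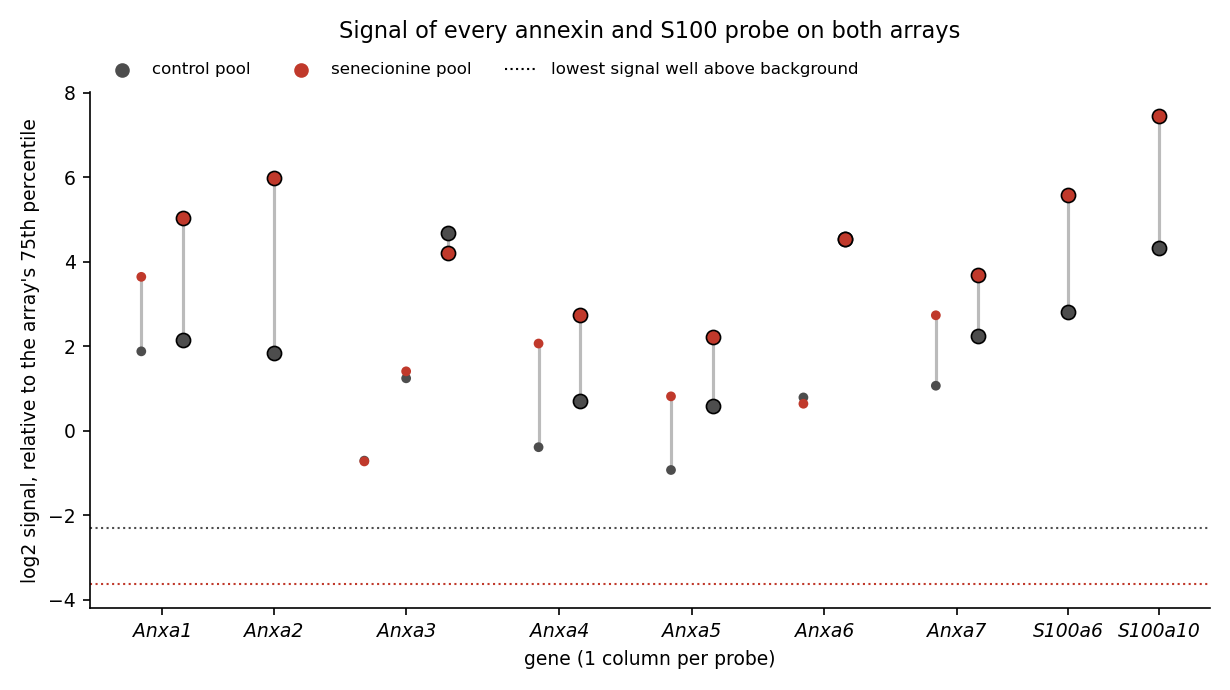
Log2 signal relative to the 75th percentile of the array (y axis) for each of the 16 probes (x axis, grouped by gene), with the control pool in grey and the senecionine pool in red. Large outlined points mark the probe that stands for the gene, and dotted lines the lowest signal called well above background on each array. The largest gap belongs to Anxa2, from 1.84 to 5.99, and the points of Anxa6 coincide.

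The upstream windows of 4 genes are shown because they cover the members with high ratios (Anxa1, Anxa2, S100a6) and a member within 2-fold (Anxa3). RefSeq's promoter table for build GRCr8 held 8 of the 10 genes, not Anxa6 and S100a10. Each window is the 250 bases before the gene's start in that table, 5′ to 3′ on the gene's strand, and capitals mark the motif matches. The array itself was designed on build rn4, so the windows were matched by symbol. They are chr1:227303733-227303982 (minus strand) for Anxa1, chr8:78986002-78986251 (plus strand) for Anxa2, chr2:178398287-178398536 (plus strand) for S100a6 and chr14:13085598-13085847 (minus strand) for Anxa3.
Anxa1: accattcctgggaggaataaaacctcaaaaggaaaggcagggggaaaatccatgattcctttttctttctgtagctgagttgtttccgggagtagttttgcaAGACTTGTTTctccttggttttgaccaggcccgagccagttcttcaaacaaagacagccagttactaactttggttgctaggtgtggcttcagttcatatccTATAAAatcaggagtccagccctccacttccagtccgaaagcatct
Anxa2: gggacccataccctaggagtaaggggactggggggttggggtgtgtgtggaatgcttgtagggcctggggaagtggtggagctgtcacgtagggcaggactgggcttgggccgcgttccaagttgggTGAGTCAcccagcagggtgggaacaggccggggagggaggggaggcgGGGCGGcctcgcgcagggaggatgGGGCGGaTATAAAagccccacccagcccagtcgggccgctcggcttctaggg
S100a6: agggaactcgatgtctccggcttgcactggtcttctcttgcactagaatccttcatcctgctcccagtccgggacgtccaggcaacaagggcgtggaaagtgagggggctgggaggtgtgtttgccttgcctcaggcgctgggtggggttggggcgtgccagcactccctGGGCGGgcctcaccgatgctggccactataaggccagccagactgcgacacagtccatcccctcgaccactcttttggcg
Anxa3: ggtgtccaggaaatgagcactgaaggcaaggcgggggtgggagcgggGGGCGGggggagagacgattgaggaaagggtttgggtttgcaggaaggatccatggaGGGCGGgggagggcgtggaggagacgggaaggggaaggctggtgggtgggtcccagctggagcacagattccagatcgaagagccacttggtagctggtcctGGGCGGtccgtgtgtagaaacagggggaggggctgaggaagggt

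Both strands were searched for the AP-1 site, written TGANTCA, and the CCAAT box. The GC box was searched as GGGCGG, the TATA box as TATAAA and the STAT site as TTCNNNGAA. Matches may overlap. The serum response element (CArG box), an NF-kappaB site and the p53 decamer, which a full p53 site holds in a pair, were searched by their consensus. An AP-1 match was present in the Anxa2 window, 123 to 117 bases before the start, and in no other member window, beside 6.34% of all 33469 windows. A TATA box was present in the windows of Anxa1 and Anxa2, at 46 to 41 and 45 to 40 bases before the start, beside 12.9% of all windows. GC boxes were present in 6 of 8 member windows, in Anxa3 as in Anxa2, Anxa4, Anxa5, S100a6 and S100a11, beside 30.5% of all windows. G and C made up 67.2% of the window in Anxa2 and 45.2% in Anxa1, against a median of 51.2% over all windows. A single p53 decamer matched in Anxa1 (6.64% of all windows), the NF-kappaB consensus in Anxa4 (6.33%) and CCAAT in Anxa4 and Anxa7 (34.0%). No member window held a STAT match, which 7.67% of all windows did, or a serum response element, which 501 windows did. A match is a run of letters in the window and no measured binding.

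Anxa2, a membrane-bridging annexin that also serves as a plasminogen receptor subunit, had a log2 scaled signal of 1.84 in the control pool and 5.99 in the senecionine pool. Here and below, a log2 scaled signal is the log2 of the processed signal minus the log2 of that array's 75th percentile. The difference of 4.15 ± 0.21 was the 19th highest of 7803 genes. The error here combines the scanner software's error estimates of both spots, and refers to noise within the arrays only. For bright spots it took nearly the same value whatever the gene, 0.204 for Alb as for Bsg and Fgb. It is thus an estimate by the software and no spread measured between repeats. The gene has 1 probe (NM_019905), and its processed signal was 360 intensity units in the control and 8484 in the senecionine pool. S100a10, its partner (1 probe, NM_031114), went from 4.33 to 7.46, a log2 ratio of 3.13 ± 0.20 and the 62nd highest. Both partners were thus on the same side, with the senecionine pool above the control pool by many times the spot error. RefSeq lists 1 pseudogene each for Anxa2 and S100a10 and 4 for Anxa7, and probes could bind transcripts of such copies, which makes these values uncertain to that extent.

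S100a6, known as calcyclin, had a log2 scaled signal of 2.82 in the control pool and 5.58 in the senecionine pool (1 probe, NM_053485). The log2 ratio was 2.76 ± 0.20, the 86th highest. Genes on 1 probe (Anxa2, S100a6 and S100a10) have no second probe that could be set against the value. The authors' deposited table, a selection of probes at least 2-fold different, lists all 3, with log2 differences of 4.46 for Anxa2, 2.9997 for S100a6 and 3.46 for S100a10.

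Anxa1, a glucocorticoid-induced protein that dampens leukocyte recruitment through formyl peptide receptors, was measured by 2 probes (NM_012904). The brighter went from 2.15 in the control to 5.04 in the senecionine pool, and the dimmer from 1.88 to 3.65. Both probes were higher after senecionine, by log2 ratios of 2.88 ± 0.20 and 1.76 ± 0.21, which is 7.38-fold and 3.40-fold. The probes thus differ by 1.12 in log2 ratio, more than their spot errors. Among 1377 genes with more than 1 probe detected on both arrays, the median range between probes was 0.44, and 15.1% had a wider range than Anxa1. The direction and the 2-fold call of Anxa1 hold on both probes, but its size depends on the probe.

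Anxa4, an annexin of secretory epithelia, went from 0.70 to 2.75 on its brighter probe and from -0.39 to 2.07 on the other (NM_024155). The log2 ratios were 2.05 ± 0.21 and 2.45 ± 0.23. On both probes the senecionine pool was the higher. Anxa5, which binds phosphatidylserine on dying cells, went from 0.58 to 2.22 and from -0.93 to 0.82 on its 2 probes (NM_013132). Its ratios of 1.63 ± 0.21 and 1.74 ± 0.30 lay within the spot error of each other. Anxa7, a membrane fusion annexin known as synexin, went from 2.25 to 3.69 and from 1.07 to 2.74 (NM_130416), with ratios of 1.44 ± 0.20 and 1.67 ± 0.21. Anxa4, Anxa5 and Anxa7 thus stood between 2.71-fold and 4.13-fold higher on their brighter probes, and the other probes were higher as well.

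Anxa6, which carries a doubled core domain and is known from endosomes and cholesterol transport, had 4.55 in the control and 4.54 in the senecionine pool (NM_024156). Its ratio of -0.01 ± 0.20 was within the spot error, and the other probe gave -0.15 ± 0.21. Under cyclic loess the ratio was 0.20, so its sign depends on the scaling. Anxa3, a calcium-dependent lipid binder found in neutrophil granules and in liver progenitor cells, was measured by 3 probes (NM_012823). The brightest went from 4.69 to 4.21, the middle one from 1.25 to 1.41 and the dimmest from -0.70 to -0.72. Their log2 ratios of -0.48 ± 0.20, 0.17 ± 0.21 and -0.02 ± 0.26 lie on either side of 0 and all within 2-fold. Neither gene is listed in the authors' deposited table. Across the 6 members with several probes, no gene had probes on different sides of 2-fold.

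**Figure D2:**
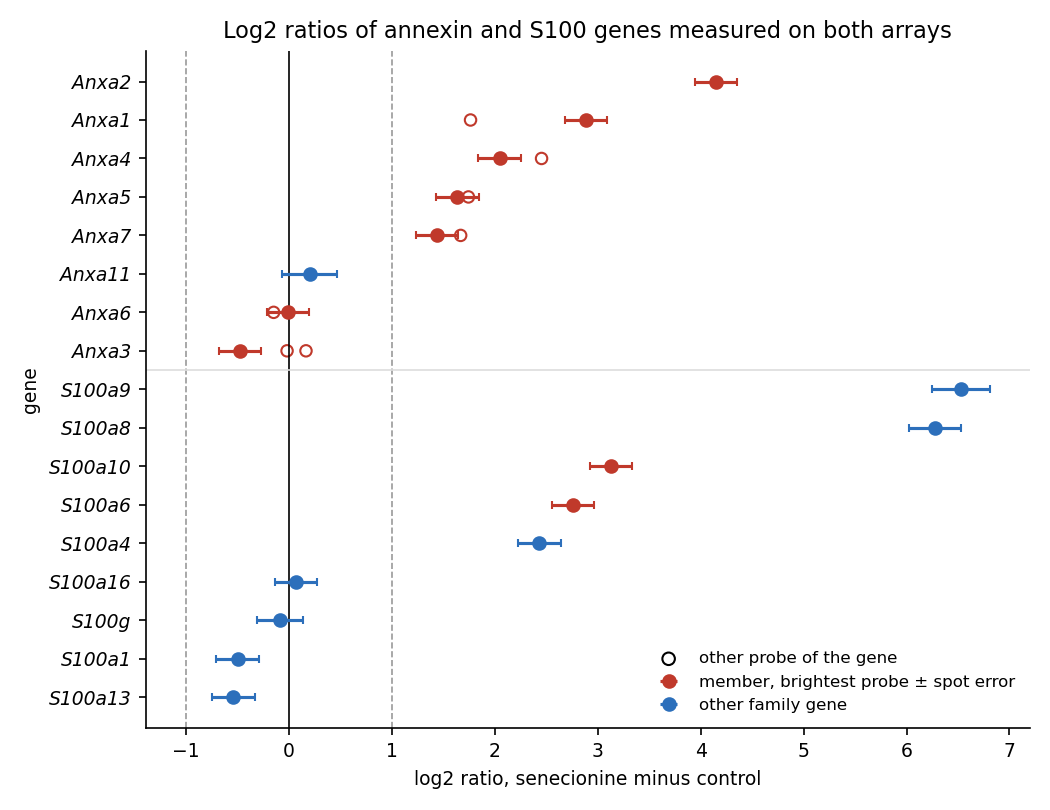
Log2 ratio, senecionine minus control (x axis), of the 17 annexin and S100 genes measured on both arrays (y axis), members in red and other family genes in blue. Filled points show the brightest probe with its spot error, open points other probes, and dashed lines 2-fold. Anxa2 leads the annexins at 4.15, and S100a9 and S100a8 lead the S100 genes.

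Placed among all measured genes, the members that were higher did not sit at one signal level. S100a10 was among the brighter and Anxa5 among the dimmer of them. In order of ratio, Anxa1 ranked 77th, Anxa4 201st, Anxa5 341st and Anxa7 446th of 7803, while Anxa6 ranked 3448th and Anxa3 5069th. By spot error alone, the neighbours Anxa1 (2.88), S100a6 (2.76) and S100a10 (3.13) overlap, as do Anxa5 and Anxa7, so their order is not resolved.

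**Figure D3:**
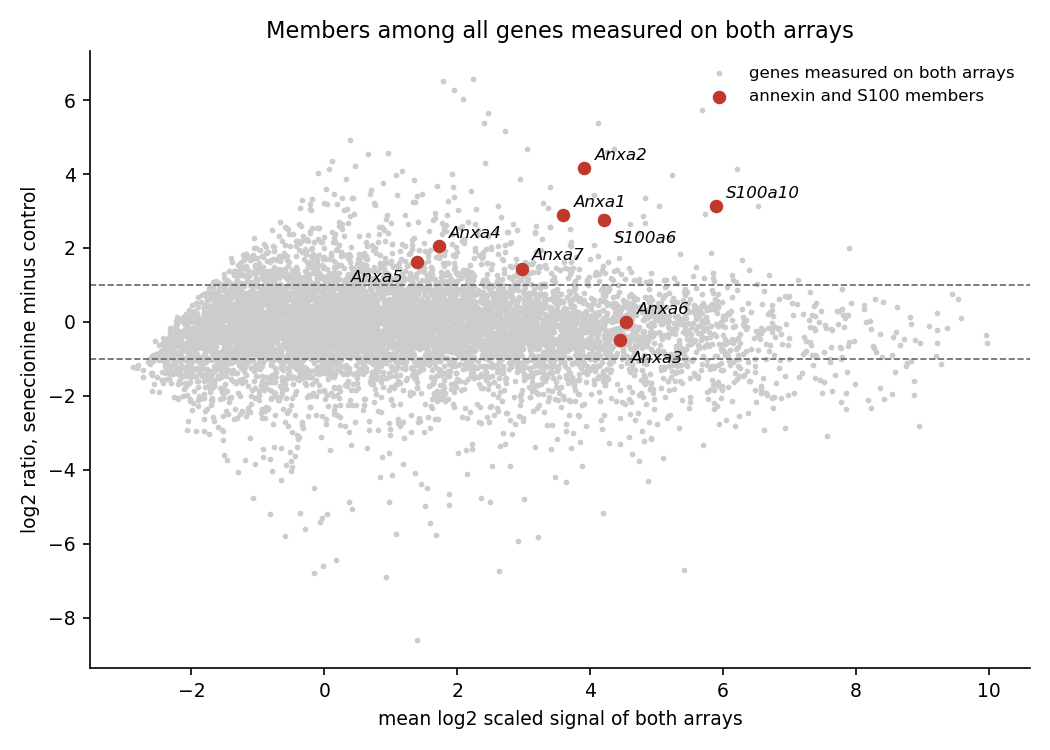
Log2 ratio, senecionine minus control (y axis), against the mean log2 scaled signal of both arrays (x axis) for 7803 genes in grey and the 9 measured members in red, with dashed lines at 2-fold. Anxa3 and Anxa6 lie between the dashed lines and the other 7 members above them.

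The remaining family genes came from lists of 5 other annexins and 15 other S100 genes. Of the other annexins only Anxa11, a partner of S100a6, was measured on both arrays, from -1.02 to -0.82, a log2 ratio of 0.20 ± 0.27. Anxa13, an epithelial annexin, was detected only in the senecionine pool, at least 2.05-fold higher. Bounds here and below set the senecionine signal against the lowest signal called well above background on the control array. Where the probe's own control signal lay above that level, as for Plau, the control signal was used instead. Anxa8 and Anxa10 were not detected on either array, and Anxa9 had no probe that could be named. Detection on the senecionine array only was common, at 19.1% of all named genes.

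Of the 15 other S100 genes 7 were measured on both arrays, with a median log2 ratio of 0.07. Higher by 2-fold or more were 3 of them and lower by as much none, beside 11.2% and 17.7% of all genes. S100a8 and S100a9, the myeloid calgranulins, went from -1.18 to 5.09 and from -1.48 to 5.04, and S100a4, a motility-linked S100 protein of stromal and immune cells, from 1.96 to 4.39. Their log2 ratios were 6.28 ± 0.26, 6.53 ± 0.28 and 2.43 ± 0.20. The other 4 were within 2-fold, with S100a1 at -0.50, S100a13 at -0.54, S100a16 at 0.07 and S100g at -0.09. S100z was detected only in the senecionine pool, below the lowest such signal of the control array, so no bound on its fold could be given.

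Most S100 genes neighbour each other on rat chromosome 2 in the RefSeq gene table. In that order, S100a1, S100a13 and S100a16 at one end were within 2-fold, and S100a4, S100a6, S100a8 and S100a9 after them were higher. S100a3, S100a5 and S100a7a, which lie in between, were not detected on either array. S100a10 lies farther along, past skin barrier genes such as Ivl and Kprp that were not detected on either array. Of 12 named S100 genes in this stretch 8 were measured on both arrays, 5 of them at least 2-fold higher, beside 11.2% of all genes. None of the 6 other named genes was measured. The measured S100 genes of the stretch thus differ widely among themselves, from -0.54 to 6.53.

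**Figure D4:**
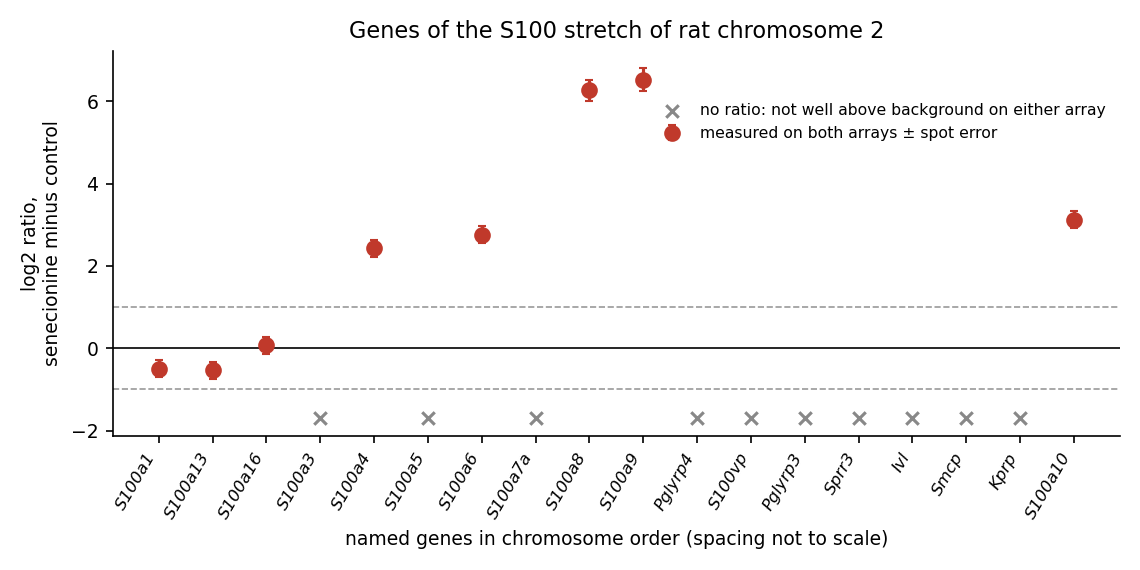
Log2 ratio, senecionine minus control (y axis), of the named genes from S100a1 to S100a10 in their order on chromosome 2 (x axis, spacing not to scale). Points carry the spot error, crosses below mark genes with no ratio and dashed lines mark 2-fold, and the 5 higher genes start at S100a4.

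Of 18 receptors and binding partners 8 were measured on both arrays, with none higher by 2-fold, 1 lower and a median log2 ratio of 0.42. These counts are near the shares of all genes, 11.2% higher and 17.7% lower. The 1 lower gene was Plg, the liver-made plasminogen that the complex of Anxa2 and S100a10 binds, from 6.15 to 4.55, a log2 ratio of -1.60 ± 0.20 or 3.03-fold lower. The chaperone cofactor Sugt1 and the S100a6-binding Cacybp had ratios of 0.54 and 0.51, and the calcium sensor Sri one of 0.47. A further 5 were detected only in the senecionine pool. Among them were the plasminogen activators Plat (at least 3.81-fold higher) and Plau (at least 3.69-fold), the urokinase receptor Plaur (at least 2.68-fold) and the S100 receptor Ager, with a bound of 1.01-fold. The formyl peptide receptor Fpr1 was not detected on either array.

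Genes of plasma membrane repair, a process in which annexins gather at the wound edge, were measured on both arrays in 14 of 22 cases, with 2 higher by 2-fold or more and none lower by as much (median 0.12). This is 2 of 14 beside 11.2% of all genes, a share near the background. Snap23, a fusion protein of the plasma membrane, went from -1.54 to 0.32, a log2 ratio of 1.86 ± 0.28. The calpain Capn2, a calcium-activated protease, had a ratio of 1.09 ± 0.20. With median scaling 1 gene of this list was higher and 1 lower by 2-fold. Ehd1 and Chmp3, both of membrane traffic, had ratios of -0.97 and 0.68. The ferlin Dysf, a membrane repair protein, had a ratio of 0.10. Of the 6 genes detected only in the senecionine pool, Chmp4c, Ehd2 and Capn1 had bounds of 1.49-fold, 1.12-fold and 1.11-fold, and Syt7, Trim72 and Cavin1 had none.

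**Figure D5:**
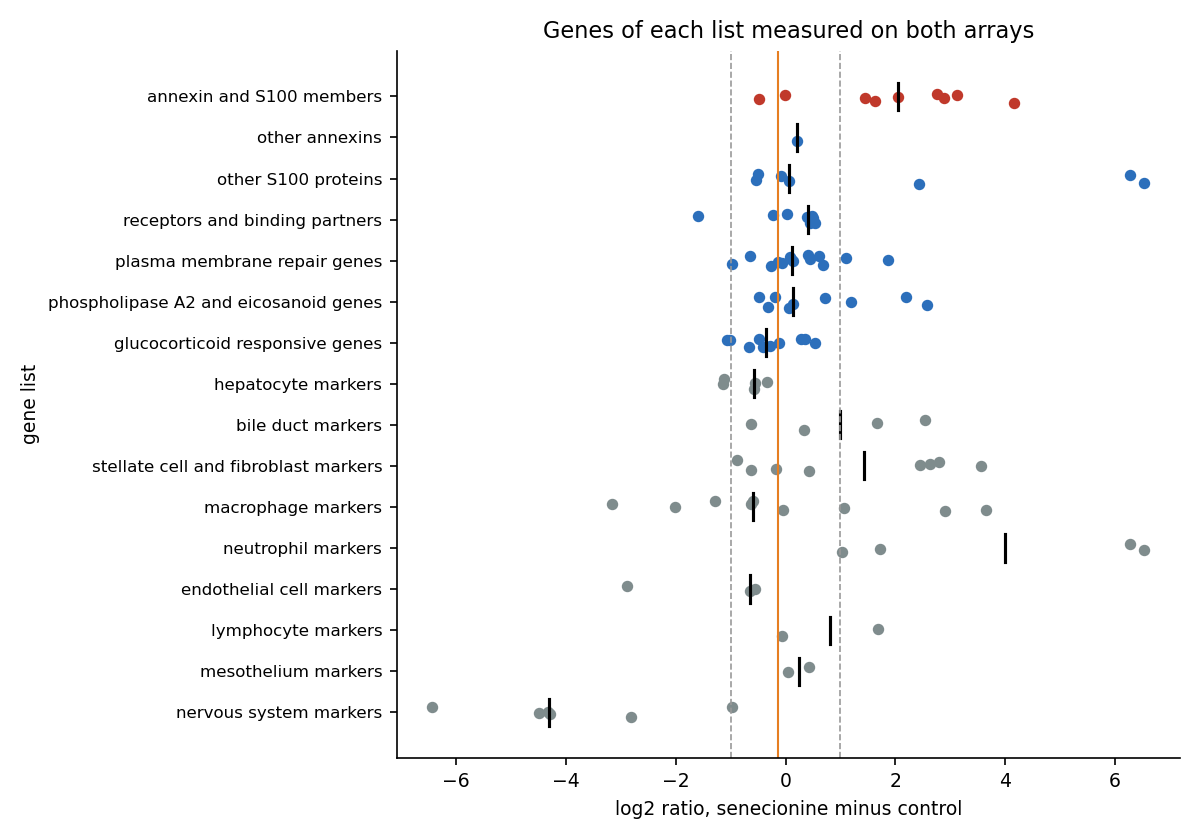
Log2 ratio, senecionine minus control (x axis), of every gene measured on both arrays in each list (y axis), with the list's median as a black bar, the median of all genes in orange and dashed lines at 2-fold. The members (red) have a median of 2.05, the pathway lists (blue) lie nearer 0, and cell type markers are in grey.

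Markers of several liver cell types also differed between the pools. Hepatocyte markers were bright on both arrays, with Alb at 9.85 and 8.71, and 2 of 5 measured were at least 2-fold lower. Of the measured markers at least 2-fold higher, there were 4 of 4 for neutrophils, with S100a8 and S100a9 counted again here. There were 4 of 8 for stellate cells and fibroblasts, 2 of 4 for bile duct and 3 of 9 for macrophages, where another 3 were lower. The higher macrophage markers, with their log2 ratios, were Gpnmb (3.66), Lgals3 (2.91) and Cd68 (1.06). The lower ones were Clec4f (-3.17), Vsig4 (-2.00) and Adgre1 (-1.28). Over all genes, 11.2% were at least 2-fold higher and 17.7% as far lower. The summed scaled signal, in multiples of the 75th percentile of the array, went from 5.15 to 81.0 over 9 neutrophil markers (S100a8 and S100a9 among them), from 1.498 to 25.9 over 8 bile duct markers and from 176 to 273 over 11 macrophage markers. It went from 225 to 164 over 9 stellate cell and fibroblast markers and from 66.9 to 18.6 over 5 endothelial markers. Of the 3 endothelial markers measured on both arrays only Kdr, a receptor of vascular growth factor, was 2-fold or more lower, with a log2 ratio of -2.89 ± 0.20, while Lyve1 (-0.55) and Eng (-0.64) were within 2-fold. Sum and median log2 ratio had opposite directions for stellate cell and fibroblast markers (median 1.43, with the bright collagen Col3a1 at -0.88) and for macrophage markers (median -0.58, with Lgals3 at 2.91). For the 9 members the sum went from 92.3 to 386. On the control array Elane, Csf3r, Cxcr2, Mmp8 and Mmp9 among neutrophil markers, Spp1, Cldn7 and Cftr among bile duct markers, Lum among stellate cell markers and Cd163 and Itgam among macrophage markers were not detected. In bulk tissue, more cells of a type and more RNA per cell cannot be told apart, and the part of these cells in the members' ratios was not tested.

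Lymphocyte markers were at least 2-fold higher in 1 of 2 measured genes and mesothelial markers in none of 2, beside 11.2% of all genes. Nervous system markers were at least 2-fold lower in 5 of 6 measured genes, beside 17.7% of all genes. Their summed scaled signal was 78.9 in the control and 4.70 in the senecionine pool. The processed signal of Mbp was 1054 intensity units in the control and 16.2 in the senecionine pool, and that of Tubb3 5620 and 373. Mog was within 2-fold. Snap25 was detected only in the control pool, and Gfap and Syt1 only in the senecionine pool, without a bound. This control pool is the reference of every ratio given here, and the source of these signals was not tested. S100b, the S100 gene known from glia, was not detected on either array.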

How the data were processed

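Agilent Feature Extraction 10.7.3.1, per the file headers, turned the scans into spot intensity, with background subtraction and detrending inside each array. The deposited intensity values are not scaled between arrays. Of 43379 non-control spots, 44.4% (control) and 64.1% (senecionine) were well above background, and none was saturated. The 75th percentiles were 101 and 134 intensity units.

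Here log2 of each processed signal minus log2 of its array's 75th percentile was averaged over spots of a probe, without control spots and outlier spots (522 and 497). RefSeq accessions gave symbols (assembly GRCr8) to 17250 of 40516 probes. A gene's brightest probe well above background on both arrays represents it. Single arrays per group allow no test. Genes were counted at 2-fold. Precision is limited by there being 2 arrays. The authors also deposited log2 values of 7404 probes (column medians 6.03 and 6.10). No source used here states their scaling. Both columns were compared with the scanner values. All 7355 probes compared ran the same way (Pearson r = 0.994 across them, though probes are no replicates). The deposited values come from the same 2 arrays and only from probes at least 2-fold different. The shared direction and r are thus no independent check. Members and lists were chosen with earlier results of these data known. Named genes were all members, the measured genes of both families, the 4 most different genes of each other list and genes detected on 1 array. Dysf, Fpr1, S100b and the marker genes were named outside this rule, and some listed genes are not reported here. Alternatives tried were median, quantile and cyclic loess scaling, normexp correction with offset 50 (on median spot signals), other probe, outlier and detection rules, other folds and the authors' values. Normalization alternatives used limma 3.58.1 in R 4.3.3, and the rest pandas 2.3.3 and numpy 2.4.6 in Python 3.11.15, with figures by matplotlib 3.10.9.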

Additional observations from a re-analysis of the deposited data

How the results depend on the processing

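The same count of 7 members at least 2-fold higher and none lower was found under every alternative run, except at a 4-fold threshold, which left 5 higher. Some alternatives could not change this count. The authors' table holds only probes at least 2-fold different, so it could show no listed member within 2-fold. The detection rules had no effect because every member probe was detected on both arrays, and keeping outlier spots left each member ratio unchanged. The members' median log2 ratio of 2.05 was 1.60 with normexp correction, 1.76 with the dimmest probe and 2.9997 with the authors' deposited values, which list only 7 members. Over all genes the median of -0.14 was -0.26 with median scaling, which lowers every ratio by the same amount. Over the 6 pathway lists together, the 8 genes at least 2-fold higher became 20 when detection on 1 array was enough or no filter was set, and 5 at 4-fold. The 3 lower became 1 with quantile normalization, cyclic loess or the authors' deposited values, 6 with no filter or at 1.5-fold, and 0 at 4-fold. Over all genes, the 876 higher and 1379 lower at 2-fold were 613 and 761 with normexp, 2389 and 1562 when detection on 1 array was enough, and 2394 and 3000 with no filter. The cause of these changes was not tested beyond what each setting does by construction. The 16 member probes lay above background on both arrays, so detection does not limit them. No paired analysis was possible because each group has 1 array.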

Other observations

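Genes of phospholipase and eicosanoid metabolism, a pathway that Anxa1 is known to restrain, were measured on both arrays in 9 of 14 cases, with 3 at least 2-fold higher and none lower (median log2 ratio 0.14), beside 11.2% and 17.7% of all genes. The secreted phospholipase Pla2g2a went from -0.46 to 2.11 in log2 scaled signal, 5.95-fold higher. Alox5ap, the partner of 5-lipoxygenase in myeloid cells, was 4.58-fold and the lipoxygenase Alox15 2.29-fold higher, while the phospholipase Pla2g4a had a log2 ratio of 0.72. The prostaglandin synthase Ptges was detected only in the senecionine pool, at least 2.86-fold higher. Alox5 and Hpgd were also detected only there, without a bound. Hpgd was not higher, with a log2 scaled signal of -2.88 in the control and -3.30 in the senecionine pool. Ptgs2, the inducible cyclooxygenase, was not detected on either array.

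On a list of 12 glucocorticoid responsive genes 10 were measured, of which none was at least 2-fold higher and 2 were lower (median -0.35), shares near those of all genes (11.2% and 17.7%). The kinase Sgk1 and the amino acid enzyme Tat had log2 ratios of -1.07 and -1.01, and Errfi1 and Dusp1 -0.67 and 0.54. With quantile normalization or cyclic loess none was at least 2-fold lower, and with the dimmest probe of each gene 1 was higher. Fkbp5, named after its values were seen, had ratios of 0.27 ± 0.21 and 1.00 ± 0.26 on its 2 probes detected on both arrays, and was not detected in the control pool on another probe.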
